A study of Mus musculus with 9 samples.

Results

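The ciliary transition zone complex was followed here through 9 genes, Tctn1, Tctn2, Tmem67, Tmem231, Mks1, B9d1, B9d2, Rpgrip1l and Cep290, taken by name from the 53379 gene identifiers of the count tables. The rule that sets them uses gene names and no measured value, though it was written with earlier results of these data known. All 9 genes were found, and all 9 passed the filter on low counts that left 19572 genes for testing. The RNA came from GFP-positive cells of the embryonic forebrain of C57Bl6DBa2 mice, sorted at E16.5 (embryonic day), which was 2 days after in utero electroporation at E14.5. Of 9 libraries, 3 came from cells given the plasmid pCAGGS-GemC1, 3 from cells given pCAAGS-Mcidas, and 3 from cells given H2B-GFP without either factor. All groups thus share the surgery, the sort and a forebrain that keeps its own Gmnc (the gene of GemC1) and Mcidas genes. The labels give no number of embryos per library, and pCAGGS is known as a vector with a strong promoter that is active in most cell types. The series set out to learn how GemC1 starts the multiciliated fate.

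The transition zone is the short segment between the basal body and the ciliary axoneme, where Y-shaped links join the microtubule doublets to the membrane and limit which proteins enter or leave the cilium. The MKS module is its membrane-linked part: the tectonics Tctn1 and Tctn2, the membrane proteins Tmem67 and Tmem231, and the B9-domain proteins Mks1, B9d1 and B9d2. Rpgrip1l and Cep290 are scaffolds on which the MKS and NPHP modules are built. Neural progenitors carry a primary cilium and ependymal cells many motile ones, and both kinds have a transition zone. Loss of these genes in people causes Meckel and Joubert syndromes and related ciliopathies.

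The starts of these genes were read from RefSeq promoter sequences (GRCm38.p6, 250 bases before to 50 after each start), which held 8 of the 9 genes, Tmem67 being the exception. The letters GTTGCC, the core of the X-box that RFX factors are known to bind, stood on either strand at 6 of the 8 genes (75%), against 14.1% of the 27025 genes in the table. The looser form GTTNCCNNG, which overlaps the first wherever the letters fit both, stood at 5 of 8 genes (62.5%, against 18.8%). Shares of GTTGCC in the other ciliary lists described below were taken over the genes with a promoter sequence. They were 4 of 10 (40%, further MKS), 1 of 7 (14.3%, NPHP) and 1 of 5 (20%, assembly). The transport and BBSome lists had 8 of 18 (44.4%) and 3 of 9 (33.3%). For GTTNCCNNG the shares in the same order of lists were 80%, 14.3%, 40%, 61.1% and 33.3%, so the letters were not particular to these genes. Rpgrip1l and Cep290 held neither form in this window. The forkhead letters TGTTTAC and the E2F letters TTTGGCGC and TTTCCCGC were found at none of the 8 (4.05%, 0.585% and 1.24% of all genes), and the MYB letters CAACTG at 2 of 8, B9d2 and Tmem231 (15.4% of all genes). A match says only that the letters are there. Stretches of 30 bases on the gene's strand are shown for the genes with X-box letters, which stand in capitals:
Tctn1, chr5:122264411-122264440, minus strand: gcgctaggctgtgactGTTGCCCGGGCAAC
Tctn2, chr5:124598677-124598706, plus strand: ctgattggagGTTACCATGgctactggtcc
Tctn2, chr5:124598752-124598781, plus strand: ttgattggtgGTTGCCATGgctgcaggcat
Mks1, chr11:87853183-87853212, plus strand: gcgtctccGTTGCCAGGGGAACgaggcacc
B9d1, chr11:61505151-61505180, plus strand: ccgagagcctCCTGGCAACagcgcgcggcc
B9d2, chr7:25680784-25680813, plus strand: gaggaacctgctGTTGCCccagcaacagtc
Tmem231, chr8:111933783-111933812, minus strand: cccgccgtcgGTTGCCGTGgagactcggcg

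Tctn2 had the largest difference from GFP of the 9 genes, and both of its stretches carry the form GTTNCCNNG. The first lies 62 to 54 bases before the start and the second 14 to 22 bases after it. Its 250 bases before the start are shown whole, beside those of Cep290, which was called in neither comparison with GFP and where none of the X-box letters were found. The letters and the calls did not go together in every gene: Rpgrip1l, without the letters, was called with Mcidas, and Tctn1, B9d1 and B9d2, with them, were called in neither comparison:
Tctn2, chr5:124598499-124598748, plus strand: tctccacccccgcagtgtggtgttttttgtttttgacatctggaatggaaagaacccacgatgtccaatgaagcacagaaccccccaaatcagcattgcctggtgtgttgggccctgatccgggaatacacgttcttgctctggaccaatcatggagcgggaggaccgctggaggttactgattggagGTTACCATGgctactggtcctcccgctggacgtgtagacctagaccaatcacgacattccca
Cep290, chr10:100487332-100487581, plus strand: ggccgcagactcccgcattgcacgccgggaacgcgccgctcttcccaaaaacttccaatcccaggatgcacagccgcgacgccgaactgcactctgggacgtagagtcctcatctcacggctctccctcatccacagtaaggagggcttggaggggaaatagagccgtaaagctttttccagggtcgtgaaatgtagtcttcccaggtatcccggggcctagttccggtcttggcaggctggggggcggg

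Libraries held between 22914704 and 41163917 counts, and the 9 genes between 208 and 2452 counts each per library. Levels are given as CPM, counts scaled to a common library size with TMM factors. The introduced genes matched the labels. Gmnc stood at 223.2 to 317.3 CPM in the GemC1 libraries and had 0 counts in each GFP library, and Mcidas stood at 387.5 to 596.9 CPM in the Mcidas libraries and at 0.65 to 0.69 in GFP. Mcidas was also at 76.8, 60.3 and 73.1 CPM in the GemC1 libraries, 6.71 ± 0.21 (SE) above GFP on the log2 scale (adjusted p = 4.79e-09 by edgeR). The GemC1 group thus held RNA of both genes, while Gmnc had 9, 0 and 6 counts in the Mcidas libraries. Foxj1, a forkhead factor of motile cilia, was at 99.6 to 139.9 CPM with GemC1, 95.8 to 183.3 with Mcidas and 0.51 to 1.52 with GFP. Progenitor markers (10 genes) were present in each group, at a summed level of 1592 to 1804 CPM in GemC1, 1354 to 1466 in Mcidas and 1306 to 1623 in GFP. None was called higher, and 1 was called lower with each factor: Neurog2 with GemC1 (-0.52, adjusted p = 0.0199 by edgeR) and Hes5 with Mcidas (-0.59, adjusted p = 0.0337). The log2 differences ran from -0.75 to 0.52 with GemC1, where 5 of 10 were positive, and from -0.59 to 0.24 with Mcidas, where 4 were. Young neuron markers (10 genes) were also present in each group. The latter summed to 5468 to 6398 CPM in GFP, 4485 to 4954 in GemC1, where 2 of 10 were called lower, and 4738 to 5511 in Mcidas, where none of 10 was called. Microglia markers moved with the groups: 7 of 12 were called higher in GemC1 and 2 of 12 in Mcidas, and none lower. Their log2 differences were positive in 12 of 12 with GemC1 and in 11 of 12 with Mcidas, where the lowest was -0.59. Their summed level was 74.7 to 106.2 CPM in GemC1, 48.3 to 68.98 in Mcidas and 32.7 to 45.7 in GFP. None of the 12 was at 0 in every library of a group. For these marker lists the shares of all genes tested were 3.86% called higher and 1.32% lower with GemC1, and 4.03% and 0.327% with Mcidas. Endothelial markers summed to 4.26 CPM at the highest. Choroid plexus markers (6 genes) summed to 0.72 to 1.6 CPM in GFP, 3.52 to 9.62 in GemC1 and 3.4 to 8.57 in Mcidas. Of these, Clic6, a chloride channel protein, was called higher with both factors, at 0, 0 and 0.33 CPM in GFP, 8.92, 2.44 and 5.16 in GemC1 and 2.56, 6.82 and 6.62 in Mcidas. Ttr and Kl, also defining markers of that tissue, had between 0 and 3 counts per library. The Mcidas files carry another year code than the others. If that code marks a batch, batch and group cannot be told apart.

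**Figure D1:**
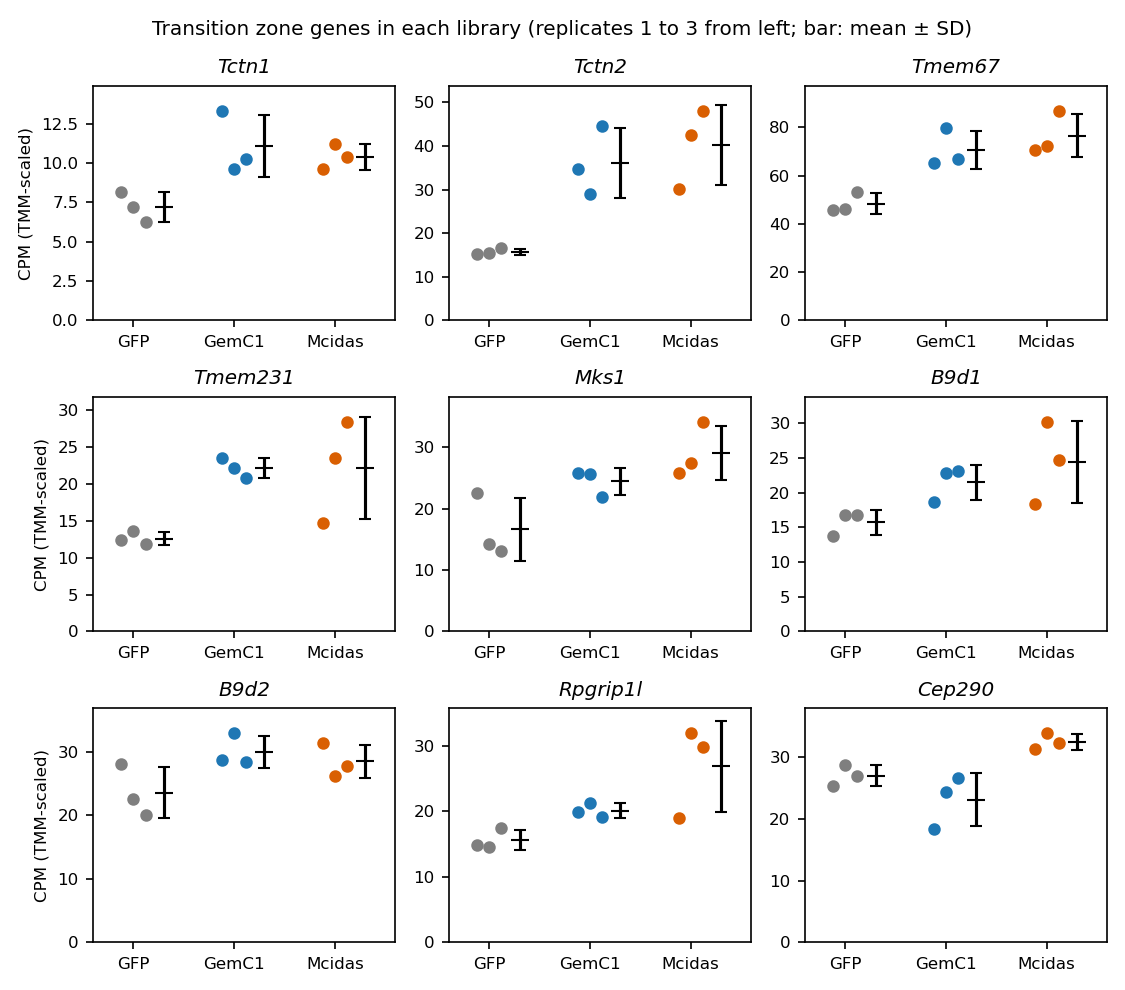
Level of each transition zone gene in every library (vertical axis, CPM after TMM scaling, starting at 0), with replicates 1 to 3 from left to right in the GFP, GemC1 and Mcidas groups and the mean ± SD of 3 libraries beside them. Tctn2 lies between 15.2 and 16.6 CPM in GFP and above 28 CPM in each library given a factor, while the Cep290 points of GemC1 lie below those of Mcidas.

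Levels were compared between genes per kilobase of exon (all annotated exons of a gene merged). In GFP cells B9d2 was highest, at 16.2 ± 2.78 CPM per kilobase (SD, n = 3), followed by B9d1 at 9.86 ± 1.11, Tmem67 at 6.23 ± 0.56 and Mks1 at 4.11 ± 1.26. Tmem231 (2.34 ± 0.17) and Cep290 (2.32 ± 0.15) overlapped each other. Tctn2 followed at 1.89 ± 0.09 CPM per kilobase, Rpgrip1l at 1.07 ± 0.11 and Tctn1 at 0.87 ± 0.12, each apart from its neighbours in all 3 libraries. With either factor the same 4 genes led and Rpgrip1l and Tctn1 stayed last, their ranges overlapping. Tctn2 stood at rank 7 in GFP and at rank 5 with GemC1 (4.34 ± 0.95) and Mcidas (4.83 ± 1.10), where it overlapped Tmem231 (4.12 ± 0.25 and 4.13 ± 1.28). Merged exons include those of rare isoforms, so genes with many isoforms read lower on this scale.

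Against GFP, some of the transition zone genes were higher in cells given either factor. With GemC1, 3 of 9 were called higher (Tctn2, Tmem67 and Tmem231) and none lower, at 0.05 on p-values of edgeR's quasi-likelihood test adjusted over all genes, where 3.86% of all genes tested were called higher and 1.32% lower. With Mcidas, 5 of 9 were called higher (the same 3, Mks1 and Rpgrip1l) and none lower, against 4.03% of all genes higher and 0.327% lower. The median log2 fold change of the 9 was 0.55 with GemC1 and 0.66 with Mcidas, beside -0.00038 and -0.03 over all genes tested. In 7 of 9 genes each GemC1 library lay above each GFP library, and in 8 of 9 each Mcidas library did, against 13.2% and 10.7% of all genes. At an unadjusted p under 0.05, 7 genes were higher and none lower in either comparison, where 10.4% of all genes were higher and 9.03% lower with GemC1, and 8.65% and 3.97% with Mcidas. DESeq2 called 4 of 9 higher with GemC1 (5.9% of all genes higher, 3.39% lower), 6 of 9 with Mcidas (5.42% higher, 0.649% lower) and none of the 9 lower. The 2 comparisons share their GFP libraries. In these bulk samples, a change in the share of cells that express a gene and a change in its RNA per cell cannot be told apart.

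These counts moved when single libraries were left out. With GemC1 the count fell from 3 to 1 without GFP replicate 2. It fell to 2 without GemC1 replicate 1, 2 or 3, Mcidas replicate 2, or GFP replicate 1 or 3. With Mcidas it fell from 5 to 2 without Mcidas replicate 2, Mcidas replicate 3 or GFP replicate 2, and to 3 without GFP replicate 1 or 3. The part of the microglia, neuron and choroid plexus markers in these changes was not tested.

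**Figure D2:**
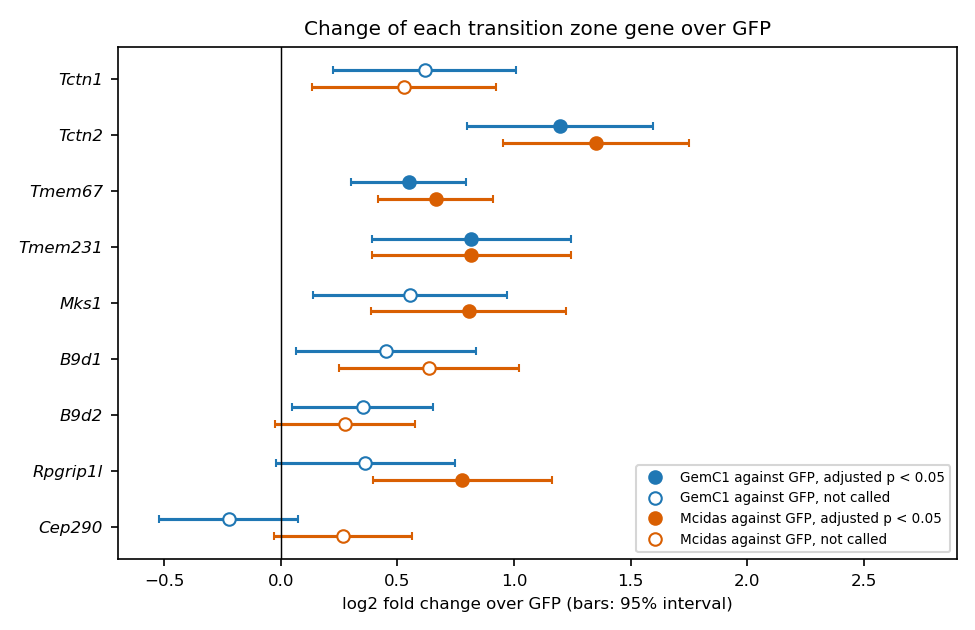
Log2 fold change of each transition zone gene over GFP (horizontal axis, with 95% interval from the quasi-likelihood fit) for GemC1 in blue and Mcidas in orange, filled where the adjusted p was under 0.05. Tctn2 stands farthest right in both, at 1.20 and 1.35, and Cep290 has intervals across 0 in both.

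Among the tectonics, Tctn2 (ENSMUSG00000029386, chromosome 5, 124598749 to 124627738 of mm10, plus strand), a membrane glycoprotein of the complex, was counted at 15.2, 15.4 and 16.6 CPM in GFP replicates 1 to 3. It was at 34.8, 28.9 and 44.6 CPM with GemC1 and at 30.2, 42.5 and 47.98 with Mcidas. Each library given a factor lay well above each GFP library, and the spread within the GFP group was the smallest of the 3. Tctn2 rose by 1.20 ± 0.18 (SE) on the log2 scale with GemC1 (adjusted p = 0.00178) and by 1.35 ± 0.18 with Mcidas (adjusted p = 0.000542). These are 2.3-fold and 2.55-fold changes. Both calls held in all 17 alternative analyses.

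Tctn1 (ENSMUSG00000038593, chromosome 5, 122237848 to 122264460, minus strand), a tectonic with a signal peptide that is needed for Hedgehog signalling in the neural tube, was the least abundant of the 9. It was at 8.17, 7.22 and 6.24 CPM in GFP, 13.3, 9.62 and 10.3 with GemC1, and 9.59, 11.2 and 10.4 with Mcidas. The groups given a factor did not overlap GFP, but the log2 differences of 0.62 ± 0.18 (adjusted p = 0.0735) and 0.53 ± 0.18 (adjusted p = 0.178) were not called by edgeR's test. Their 95% intervals ran from 0.22 to 1.01 and from 0.13 to 0.92. DESeq2 called the first (adjusted p = 0.0192). Of the Tctn1 exon bases, 19% also lie in exons of Hvcn1 on the other strand, a proton channel gene at 1.53 to 5.04 CPM over the 9 libraries, and 6.5% in the pseudogene Gm15481, at 0.17 to 0.66 CPM. The strand setting of the counts is not given in the sources used here.

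Of the membrane proteins, Tmem67 (ENSMUSG00000049488, chromosome 4, 12039355 to 12090020, minus strand) encodes meckelin, a receptor-like protein. It had the highest CPM of the 9, at 45.6, 46.0 and 53.2 in GFP, 65.4, 79.5 and 66.9 with GemC1, and 70.6, 72.4 and 86.7 with Mcidas. Neither factor's libraries overlapped GFP. It rose by 0.55 ± 0.11 (SE) on the log2 scale with GemC1 (adjusted p = 0.0142) and by 0.66 ± 0.11 with Mcidas (adjusted p = 0.00324). The GemC1 call was lost without GFP replicate 1 or 2 (adjusted p = 0.0528 and 0.0684). Rbm12b2, which starts 581 bases away on the other strand and shares 3.73% of the Tmem67 exon bases, had -0.33 ± 0.15 (adjusted p = 0.258) and -0.28 ± 0.15 (adjusted p = 0.528). Gm11842, an antisense gene that shares 1.69% of those bases, lay above GFP in each library given a factor, at 2.00, 2.23 and 2.52 CPM in GFP, 3.31, 4.54 and 3.78 with GemC1 and 4.03, 4.05 and 3.94 with Mcidas. Its log2 differences of 0.78 ± 0.23 (adjusted p = 0.0767) and 0.83 ± 0.23 (adjusted p = 0.0752) were not called. Reads in the bases that it shares with Tmem67 cannot be told apart without strand.

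Tmem231 (ENSMUSG00000031951, chromosome 8, 111912011 to 111933881, minus strand), a membrane protein that holds the MKS module at the ciliary base, was at 12.4, 13.6 and 11.8 CPM in GFP. It was at 23.5, 22.1 and 20.8 CPM with GemC1 and at 14.7, 23.5 and 28.4 with Mcidas. The GemC1 libraries lay close together and far from GFP, while Mcidas replicate 1 was just above the highest GFP library. Tmem231 rose by 0.82 ± 0.20 (SE) in both comparisons (adjusted p = 0.0323 and 0.033). The calls were fragile: the first was lost without any of the GemC1 or GFP replicates or Mcidas replicate 2 (adjusted p from 0.0532 to 0.14). The second was lost without Mcidas replicate 2 or 3 or any GFP replicate (adjusted p from 0.0793 to 0.173), and in a fit of the Mcidas and GFP libraries only (0.0703).

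The B9-domain proteins form a complex with each other. Mks1 (ENSMUSG00000034121, chromosome 11, 87853215 to 87863803, plus strand), whose loss is a cause of Meckel syndrome, was at 22.5, 14.3 and 13.1 CPM in GFP, 25.8, 25.6 and 21.9 with GemC1, and 25.8, 27.4 and 34.1 with Mcidas. GFP replicate 1 stood above the other GFP libraries and inside the GemC1 range, but below all Mcidas libraries. Mks1 rose by 0.81 ± 0.19 (SE) on the log2 scale with Mcidas (adjusted p = 0.0306). With GemC1 its log2 difference was 0.55 ± 0.19 (adjusted p = 0.126), and it was called in 2 of 17 alternatives. These were the fit without a low-count filter (adjusted p = 0.045) and that without GFP replicate 1 (0.84, adjusted p = 0.0148). As that library was the highest GFP library for Mks1, the last call is not separate evidence. The Mcidas call was lost without Mcidas replicate 2 or 3 or GFP replicate 2 or 3 (adjusted p from 0.0798 to 0.16), and in a fit of the Mcidas and GFP libraries only (0.0677).

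B9d1 (ENSMUSG00000001039, chromosome 11, 61505144 to 61512931, plus strand) was at 13.7, 16.7 and 16.8 CPM in GFP, 18.6, 22.8 and 23.1 with GemC1, and 18.3, 30.1 and 24.7 with Mcidas. No library given a factor fell within the GFP range. The log2 differences were 0.45 ± 0.18 (SE, adjusted p = 0.18) and 0.63 ± 0.18 (adjusted p = 0.0743). The second was called in 4 of 17 alternatives, among them DESeq2 (adjusted p = 0.0125) and edgeR without a low-count filter (0.00898). It was also called without Mcidas replicate 1 (0.81, adjusted p = 0.00774). As that library was the lowest Mcidas library for B9d1, the last call is not separate evidence. B9d2 (ENSMUSG00000063439, chromosome 7, 25680780 to 25686558, plus strand) was at 27.96, 22.6 and 20.03 CPM in GFP, 28.7, 32.9 and 28.3 with GemC1, and 31.4, 26.2 and 27.8 with Mcidas. Here 2 of 3 Mcidas libraries lay within the GFP range, and GFP replicate 1 was again the highest of its group. Its log2 differences were 0.35 ± 0.14 (adjusted p = 0.184) and 0.27 ± 0.14 (adjusted p = 0.468), with 95% intervals from 0.05 to 0.65 and from -0.03 to 0.58.

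Of the scaffolds, Rpgrip1l (ENSMUSG00000033282, chromosome 8, 91217030 to 91313262, minus strand), which anchors the MKS and NPHP proteins, was at 14.9, 14.6 and 17.4 CPM in GFP, 19.95, 21.2 and 19.1 with GemC1, and 18.9, 31.9 and 29.7 with Mcidas. Mcidas replicates 2 and 3 stood far above all other libraries, and Mcidas replicate 1 below each GemC1 library. Rpgrip1l rose by 0.78 ± 0.18 (SE) on the log2 scale with Mcidas (adjusted p = 0.0235), a call lost without Mcidas replicate 2 or 3 or GFP replicate 1 or 2 (adjusted p from 0.1 to 0.146). With GemC1 it had 0.36 ± 0.18 (adjusted p = 0.285). Fto, the RNA demethylase gene that starts 263 bases away on the other strand, had 0.01 ± 0.07 (adjusted p = 0.953) and -0.04 ± 0.07 (adjusted p = 0.914), with 95% intervals from -0.15 to 0.17 and from -0.20 to 0.13.

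Cep290 (ENSMUSG00000019971, chromosome 10, 100487558 to 100574840, plus strand), a long coiled-coil protein of the Y-shaped links and the most often mutated gene in several ciliopathies, was the only gene of the 9 with a negative log2 difference from GFP, and that with GemC1. It was at 25.3, 28.8 and 26.9 CPM in GFP, 18.3, 24.4 and 26.6 with GemC1, and 31.3, 33.9 and 32.3 with Mcidas. The GemC1 libraries reached from below GFP into its range, and the Mcidas libraries lay above both groups. Neither difference from GFP was called, at -0.22 ± 0.14 (SE, adjusted p = 0.402, 95% interval -0.52 to 0.07) with GemC1 and 0.27 ± 0.14 (adjusted p = 0.473, interval -0.03 to 0.56) with Mcidas. Cep290 shares 7.58% of its exon bases with 4930430F08Rik, on the other strand, which was at 13.7, 14.4 and 13.9 CPM in GFP, 8.71, 11.2 and 10.8 with GemC1 and 12.4, 14.9 and 12.6 with Mcidas. That gene had -0.46 ± 0.15 with GemC1 (adjusted p = 0.113) and -0.08 ± 0.15 with Mcidas (adjusted p = 0.908). Tmtc3, which starts 208 bases from Cep290 on the other strand, had -0.003 ± 0.14 (adjusted p = 0.994) and 0.16 ± 0.14 (adjusted p = 0.75).

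Set directly against each other, the 2 factors gave no called difference in any of the 9 genes (edgeR's test), where 0.0511% of all genes tested were called in either direction. At an unadjusted p under 0.05, 2 of 9 genes were lower with GemC1, Cep290 and Rpgrip1l, and none higher, where 6.67% of all genes were lower and 6.37% higher. DESeq2 called Cep290 (adjusted p = 0.0288), as it did 3.21% of the genes it gave an adjusted p. Cep290 was lower with GemC1 by a log2 difference of -0.49 ± 0.14 (SE, adjusted p = 0.188, 95% interval -0.79 to -0.19), with no overlap between the groups. Rpgrip1l had -0.42 ± 0.18 (adjusted p = 0.346, interval -0.80 to -0.03), with Mcidas replicate 1 below the GemC1 libraries. Mks1 also did not overlap, at -0.25 ± 0.19 (adjusted p = 0.611), but its highest GemC1 library (25.81 CPM) nearly equalled its lowest Mcidas library (25.83 CPM). Counted so, 2 of 9 genes lay lower in each GemC1 library than in each Mcidas library, against 7.64% of all genes. For the tectonics and membrane proteins the direct differences were not called: Tmem231 had -0.00024 ± 0.20 (interval -0.42 to 0.42), Tmem67 had -0.12 ± 0.11 (-0.36 to 0.13) and Tctn2 had -0.15 ± 0.18 (-0.54 to 0.24).

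**Figure D3:**
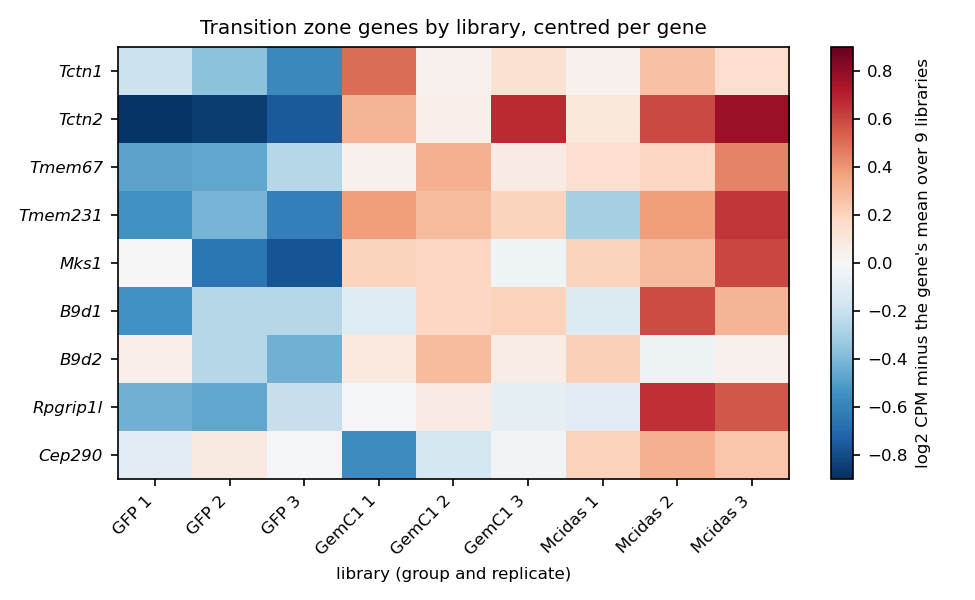
Log2 CPM of each transition zone gene minus its mean over the 9 libraries, by library (columns, grouped as GFP, GemC1 and Mcidas) and gene (rows), blue below and red above the mean. Most rows are blue in GFP, Mcidas replicate 1 is paler than replicates 2 and 3, and Cep290 is blue in GemC1.

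Within the Mcidas group, replicate 1 stood apart. It was the lowest Mcidas library in 8 of 9 genes, the exception being B9d2, and the sum of the 9 genes was 250.8 CPM there, against 299 and 322 in replicates 2 and 3. The same library had the lowest Mcidas (387.5 CPM, against 507.5 and 596.9) and Foxj1 (95.8 CPM, against 170.2 and 183.3) of its group. Without it, 6 of 9 genes were called higher than in GFP (5 with all libraries), as were 951 of all genes (788 with all libraries). As this library was singled out by its low values in these genes, that count is not separate evidence. The sums were 248.3, 267 and 261.6 CPM in GemC1 and 185.6, 179.1 and 182.1 in GFP, so that each library given a factor exceeded each GFP library.

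The mean profile of the 9 genes, each taken as log2 CPM centred on its own mean, lay at -0.43 to -0.35 in GFP, 0.09 to 0.14 in GemC1, and 0.04, 0.36 and 0.42 in Mcidas replicates 1 to 3. Of the 9 genes, Tmem67 lay nearest to this profile (root mean square difference of 0.12 log2 units over 9 libraries), and Tctn2 (0.35) and Cep290 (0.35) farthest. Of the other tested genes (mean log2 CPM 1 or more), the nearest 5 were Cluap1 (0.063), Tctn3 (0.063), Ccdc191 (0.07), Cdk20 (0.072) and Gm15518 (0.073). Cluap1 encodes a part of the intraflagellar transport train and Tctn3 is the remaining tectonic. All libraries enter this measure, so it describes these 9 libraries only.

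Other genes of the transition zone were taken from 3 lists. Of 10 further MKS module and Joubert syndrome genes, 3 were called higher with GemC1 and 5 with Mcidas, and none was called lower. Of all genes tested, 3.86% were called higher with GemC1 and 4.03% with Mcidas. Tmem107, a membrane protein that recruits other MKS proteins, was at 10.7, 9.75 and 10.6 CPM in GFP, 43.9, 45.3 and 42.3 with GemC1, and 38.3, 55.9 and 63.7 with Mcidas. It rose by 2.08 ± 0.16 (SE, adjusted p = 1.17e-05) and 2.35 ± 0.16 (adjusted p = 3.46e-06) on the log2 scale, larger estimates than those of the 9 genes. Tmem138 rose by 0.99 ± 0.16 (adjusted p = 0.00219) and 1.05 ± 0.16 (adjusted p = 0.00107), and Tctn3 by 0.50 ± 0.13 (adjusted p = 0.0406) and 0.67 ± 0.13 (adjusted p = 0.00641). Tmem17 (0.97 ± 0.23, adjusted p = 0.0276) and Ahi1 (0.41 ± 0.10, adjusted p = 0.0442) rose with Mcidas. The Tctn3 call with GemC1 was lost without any GemC1 or GFP replicate or Mcidas replicate 2 (adjusted p from 0.0653 to 0.155). The Tmem17 call was lost without Mcidas replicate 2 or 3 or GFP replicate 1 or 3 (0.0753 to 0.149), and the Ahi1 call without Mcidas replicate 2 or 3 or any GFP replicate (0.0602 to 0.194).

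Of 10 genes of the NPHP module, RPGR partners and the inversin compartment, 3 were called higher with each factor and none lower. Log2 differences from GFP were positive in 7 of the 10 with each factor. Among them, Nphp4, a scaffold of this module, rose by 0.85 ± 0.20 (SE, adjusted p = 0.0319) and 1.01 ± 0.20 (adjusted p = 0.0105), and Rpgr, a regulator of protein entry into cilia, by 0.46 ± 0.09 (adjusted p = 0.0132) and 0.72 ± 0.09 (adjusted p = 0.000383). The Nphp4 call with GemC1 was lost without GemC1 replicate 3, Mcidas replicate 2 or GFP replicate 1 or 3 (adjusted p from 0.0525 to 0.158), and with Mcidas without Mcidas replicate 3 or GFP replicate 1 or 3 (0.0623 to 0.0637). The Rpgr call with GemC1 was lost without GFP replicate 3 (adjusted p = 0.0778). Of 8 assembly factors, 2 were called higher with each factor and none lower, and 6 of the 8 had a positive log2 difference with each. Cby1, which helps basal bodies dock, rose by 0.61 ± 0.14 (adjusted p = 0.0257) and 0.76 ± 0.14 (adjusted p = 0.00606), and Fam92b, its partner in multiciliated cells, by 3.03 ± 0.73 (adjusted p = 0.033) and 3.91 ± 0.74 (adjusted p = 0.00668). Fam92b had only 4, 4 and 5 counts in the GFP libraries. Both GemC1 calls were lost without GemC1 replicate 1 or 2 or any GFP replicate, and that of Fam92b also without Mcidas replicate 2 (adjusted p from 0.0537 to 0.131 for Fam92b and from 0.0641 to 0.109 for Cby1). Over the 3 lists, 8 of 28 genes were called higher with GemC1 and 10 of 28 with Mcidas, against 3.86% and 4.03% of all genes tested. None of the 28 was called lower, against 1.32% and 0.327% of all genes.

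Other ciliary machinery was counted in the same way. The median log2 fold change was 0.41 over 22 transport genes with GemC1, where 10 were called higher, and 0.58 with Mcidas, where 14 were. Over 9 genes of the BBSome and Arl6 the medians were 0.42 and 0.55, with 3 and 4 called higher. No gene of either list was called lower. Of all genes tested, 3.86% were called higher and 1.32% lower with GemC1, and 4.03% and 0.327% with Mcidas. The multiciliated markers had medians of 4.79 and 5.12 over 11 genes and 10 called higher with each factor. Differences between these lists were not tested.

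**Figure D4:**
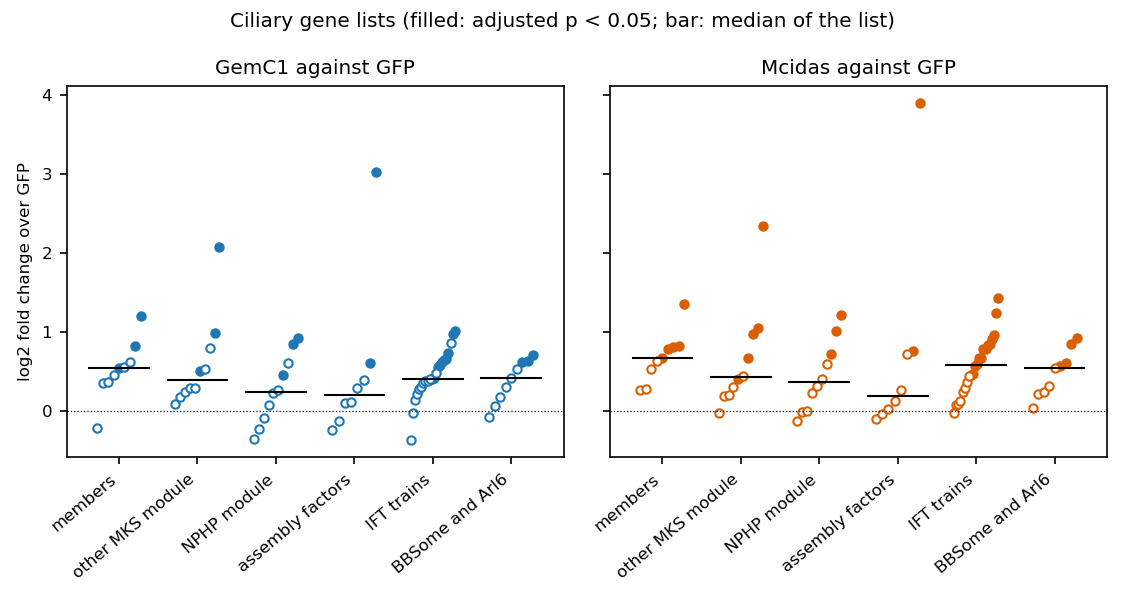
Log2 fold change over GFP (vertical axis) of the 9 transition zone genes (members) and of 5 other ciliary lists, for GemC1 at left and Mcidas at right. Each point is a gene, filled where the adjusted p was under 0.05, and bars are list medians, which lie between 0.19 and 0.66, with Tmem107 and Fam92b as the highest points.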

How the data were processed

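The authors deposited raw read counts per Ensembl gene, 1 table per library, per the file headers. Tools listed without a stated role by the submitters' processing notes are HTSeq 0.5.3, STAR 2.5.2b and DESeq2 1.8.1, and the build is mm10. Neither annotation release nor strand setting is given in the sources used here. Per the labels' protocols, 10 ng of RNA was amplified (SMART-Seq v4), made into Nextera XT libraries and read for 75 bp.

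Of 53379 identifiers, 53274 matched GENCODE M21 (GRCm38), the source of symbols, positions and exon lengths. Genes passed edgeR's filterByExpr (minimum count 10, minimum total 15), which left 19572. A common quasi-likelihood model covered the 9 libraries (edgeR 4.0.16, R 4.3.3, robust, TMM factors from 0.96 to 1.03, two-sided, group as the only term), with Benjamini-Hochberg adjustment over all genes tested and calls at 0.05. SEs derive from the quasi-likelihood F. The fit was tested on simulated data. Alternatives were DESeq2 1.42.0, its size factors, other filters, a replicate block and a fit on the compared groups only. Further ones were a fit without mitochondrial genes, Gmnc and Mcidas, a threshold of 0.01 and leaving out each library.

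The rule for the 9 genes uses names only, but the genes and the lists were chosen with earlier results of these data known. Named are the 9 genes, called members of the 3 transition zone lists (1 called gene is not reported here by name), Gmnc, Mcidas, Foxj1 and the 5 genes nearest to the mean profile. Genes overlapping or starting within 1000 bases of a member were named by position, and Clic6, Neurog2 and Hes5 after their values were seen. Replicates differed by more than counting noise (chi-square divided by its degrees of freedom: 14.1 to 25.8). The labels do not say that they are separate litters, and p-values then cover only the spread among these libraries, which may be technical.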

Additional observations from a re-analysis of the deposited data

How the results depend on the processing

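Among the named genes that were called, no direction reversed in the 17 alternatives (16 for Gmnc and Mcidas, which 1 alternative leaves out). Clic6, Neurog2, Hes5 and the other called genes were not followed singly. Leaving out 1 library at a time moved the count of transition zone genes called higher between 1 and 3 with GemC1 and between 2 and 6 with Mcidas. It moved all genes called higher with GemC1 between 443 and 877, and all genes called between GemC1 and Mcidas between 4 and 13 (10 with all libraries). DESeq2 called 1154 genes higher with GemC1 (edgeR 756) and 494 between the factors, 1 of them (Cep290) among the 9. Without a low-count filter 195 genes were called between the factors. A fit on the compared groups only called 3 of 9 higher with Mcidas and 5 genes between the factors. Without mitochondrial genes, Gmnc and Mcidas, 5 of 9 were called higher with Mcidas and 5 genes between the factors. Gmnc and Mcidas, which this setting removes, were themselves called between the factors in the main fit. At a threshold of 0.01, 1 of 9 was called with GemC1, 2 of 9 with Mcidas, 410 genes higher with GemC1 and 4 between the factors. The cause of these moves was not tested, beyond the smaller number of libraries, the stricter threshold or the removal of Gmnc and Mcidas.

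No pairing by replicate number was seen in the counts: same-numbered libraries of different groups had correlations of their deviations from -0.0744 to 0.0465, and not every library correlated best with its own number. Such values cannot show whether same-numbered libraries shared a litter or a preparation. With the replicate block, 2 of 9 genes were called higher with GemC1 and 4 of 9 with Mcidas, against 623 and 666 of all genes, and 6 genes between the factors. Under this block the calls of Tmem231 with GemC1 (adjusted p = 0.0541) and Mcidas (0.0686) and of Mks1 with Mcidas (0.0507) were lost, and B9d1 was called with Mcidas (0.032). The 9 genes had at least 208 counts in each library, and 3 libraries a group limit the precision of each difference.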
